A study of Arabidopsis thaliana with 14 samples.

Results

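The iFLMdelta experiment of this ChIP-seq series asked where the FLMdelta form of FLM sits on chromatin. Its members are all 10006 regions on chromosomes 1 to 5 in the authors' table for this construct, out of 43690 regions in the tables of the 3 constructs of the series. The GFP group holds 2 libraries from seedlings that carry FLMdelta fused to GFP (iFLMdelta-GFP), and the control group holds 2 libraries from seedlings with FLM that has no tag (iFLMdelta control). Both groups are *Arabidopsis thaliana* Columbia-0 seedlings, 10 days old, grown in long days at 23 °C and harvested 8 h after lights on, and both were precipitated with the same antibody against GFP, per the labels. What the prefix i stands for, the promoter of the construct, the number of transgenic lines and the pooling of plants are not stated in the labels. It is also not said that libraries came from separate plant pools, so p-values may reflect technical spread alone. The tables hold no measure of the tagged protein, so the label could not be checked against one.

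FLM is a MADS-box transcription factor that holds back flowering, and it acts with SVP, another MADS-box repressor. Proteins of this family bind DNA as dimers at CArG boxes, often upstream of genes that promote flowering or build flowers. FLM pre-mRNA is spliced in several ways depending on temperature, and the beta and delta proteins differ by a pair of mutually exclusive exons.

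The authors' table gives raw reads per region in 4 columns, 2 for GFP and 2 for control. Each column name gives its group and a number, but not which of the group's libraries it holds, so the pairing of a GFP with a control column rests on that number alone. The reads over all regions summed to 211113 and 101937 in the GFP columns and to 85063 and 71083 in the control columns. These are sums over selected regions and not sequencing depths. A region had a median of 20 and 10 reads in the GFP columns, against 7 and 6 in the control columns. For each column number the ratio is log2 of (GFP reads + 1) over (control reads + 1), less the log2 ratio of the column sums, so 0 means the same share of reads in both libraries. A region is called high below where this log2 ratio is 1 or more, a 2-fold excess. Reads have no molecular identifiers, so intervals cover counting error only.

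Some regions were high in both columns, but few, and none of them had more than 36 and 19 GFP reads. The ratio was 1 or more in 868 regions (8.67%) in column 1 and in 864 (8.63%) in column 2. Both columns were high in 86 regions, which is 0.859% of all regions. High in column 1 with a ratio of 0 or less in column 2 were 565 regions (5.65%), and the opposite held for 548 (5.48%). Across the 10006 regions the ratios of both columns ran against each other, with a Spearman correlation of -0.49, and of -0.35 with the control columns exchanged. Each ratio shares the selection of the regions with the other, so this is a description. GFP column 1 was more alike to either control column (0.52 and 0.54) than to GFP column 2 (0.32) in its reads per region, and GFP column 2 correlated at 0.55 and 0.39 with control columns 1 and 2. The control columns correlated with each other at 0.23.

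**Figure D1:**
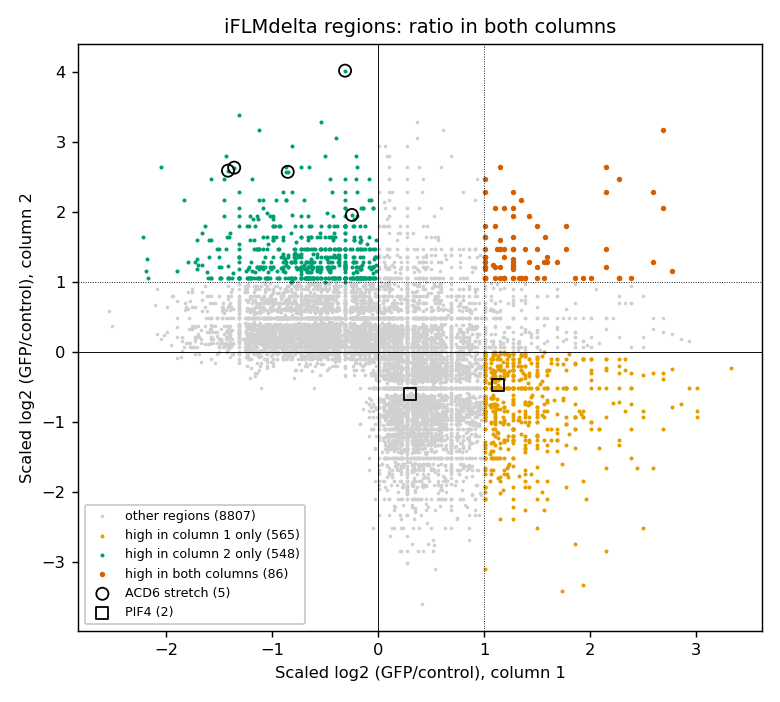
Each point is a region, with its scaled log2 ratio of GFP to control reads in column 1 (x axis) and column 2 (y axis), coloured by set. Points high in both columns (86, upper right) are far fewer than those high in 1 column and at or below 0 in the other (565 and 548), and the 5 circled ACD6 regions lie high in column 2 only.

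With the counts of all 4 libraries in a model, 0 of 4607 tested regions (0%) were called by edgeR's quasi-likelihood test with Benjamini-Hochberg adjustment. At an unadjusted p under 0.05 there were 6 regions higher and 2 lower in GFP, and DESeq2 called 0 with 7 higher and 1 lower at that p. In simulated counts of the same depth the test recovered 69.8% of regions changed 4-fold and 96.4% of those changed 8-fold. These shares cover changed regions that passed the filter, drawn from those with a mean of 10 or more reads. The simulation used a fixed spread that was not estimated from these libraries, so the shares do not give the power of the real test. The filter on low counts left only 4 of the 86 regions high in both columns in the test. Without that filter edgeR called 0 of 10006, with 54 higher and 10 lower at an unadjusted p under 0.05. Of these 64, 39 were among the 86, which the choice by ratio on the same counts favours. Regions in which both scaled GFP values lay above both scaled control values numbered 1025 (10.2%), and those in which both lay below numbered 181 (1.81%). The authors called the regions on these same libraries, so the difference between these counts is a description. By the authors' own q-values, 41 regions (0.41%) stood at 0.05 or less in both columns, and 16 of these were among the 86.

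The regions high in both columns were marked by low control reads more than by high GFP reads. Their median reads were 15 and 8 in the GFP columns, both below the medians over all regions of 20 and 10, against 1 and 1 in the control columns. GFP column 1 exceeded its overall median in 12 of the 86, and GFP column 2 in 19, against 4759 and 4134 of all 10006 regions. Control reads were 3 or fewer in both columns in 75 of the 86, against 521 of all 10006 regions. At least 10 GFP reads in each column were found in 24 of the 86, against 4867 of all 10006 regions. The nearest regions on either side of the threshold had lower ratios of 1.01 (at CYCA2;3, among others) and 0.98 (at CIPK8). Exchanging the control columns left 29 of the 86 high in both, which is 0.29% of all regions.

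**Figure D2:**
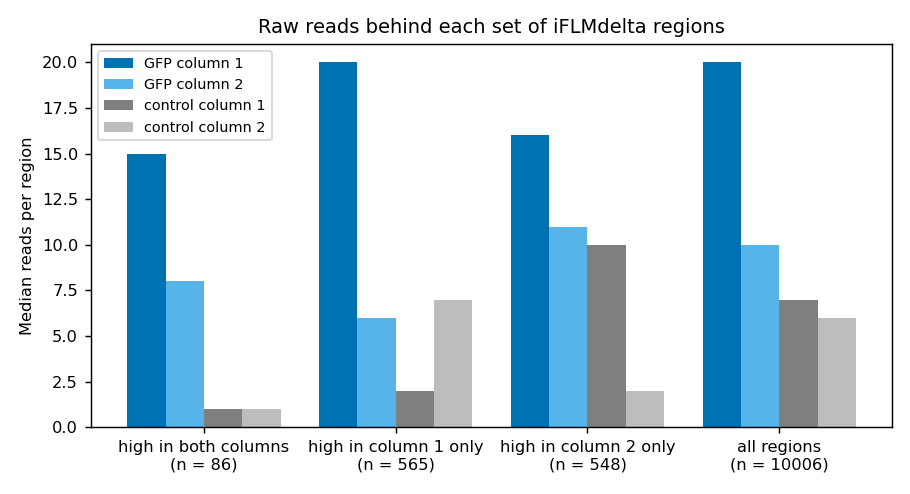
Bars give the median raw reads per region in each GFP and control column (y axis) for 4 sets of regions. Regions high in both columns have low control medians (1 and 1), and the sets high in a single column differ most in which control column is low.

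The 10 regions with the highest lower ratio and at least 10 GFP reads in each column show what the strongest joint signal looks like. First among them was an intron of DEG7 (AT3G03380), which encodes a serine protease of the DegP family (chr3:807399-807531, TAIR10). It had 15 and 12 reads in the GFP columns and 0 and 0 in the control columns. Counting 3 reads for each control column at 0, the excess was 2.01-fold in column 1 and 2.79-fold in column 2. The lower ends of the exact 95% intervals, from the reads as they stand, were 1.45-fold and 1.94-fold. The 10 regions were chosen by ratio on these same reads, which favours the intervals given here. The filter on low counts kept DEG7 out of the edgeR test. DEG7 was the single region with no control read and 10 or more reads in each GFP column, out of 8 regions with no control read. A coding exon of AT2G39300 (chr2:16410770-16410981) had the best rank in the authors' deposited table. It had 36 and 17 GFP reads against 4 and 3 in control, and its groups did not overlap before or after scaling. Its scaled excess was 3.63-fold in column 1 (exact 95% interval 1.30 to 14.0) and 3.95-fold in column 2 (1.14 to 21.0). In edgeR its log2 fold change was 1.93 ± 0.70 (SE, n = 2 libraries each), with an unadjusted p of 0.00572 and an adjusted p of 0.999905.

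The other 8 of the 10 had at most 29 and 17 GFP reads. An intron of AT1G30680, listed in RefSeq as the homolog of the organelle DNA helicase TWINKLE (chr1:10884381-10884596), had 29 and 17 reads in GFP against 4 and 4 in control. The region 710 bp upstream of IDD5, an indeterminate-domain zinc finger gene (chr2:504686-504867), had 17 and 11 against 2 and 2. A coding exon of AT4G10695 (chr4:6593797-6593928) had 18 and 12 against 2 and 1. Between AT3G17150, which ends 186 bp away, and AT3G17152, which starts 405 bp away, a region (chr3:5848308-5848455) had 19 and 10 against 2 and 1. The region 143 bp past the end of AT5G44565 had 11 and 10 against 1 and 1. The remaining 3 lie at pericentromeric pseudogenes: AT3G42174 (10 and 13 against 0 and 1), AT5G33380 (14 and 10 against 1 and 2) and AT3G33030 (14 and 13 against 1 and 3). Ratios over the 10 ran from 1.27 to 2.69 in column 1 and from 1.29 to 3.18 in column 2, and q was 0.05 or less in both columns for 8 of them.

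**Figure D3:**
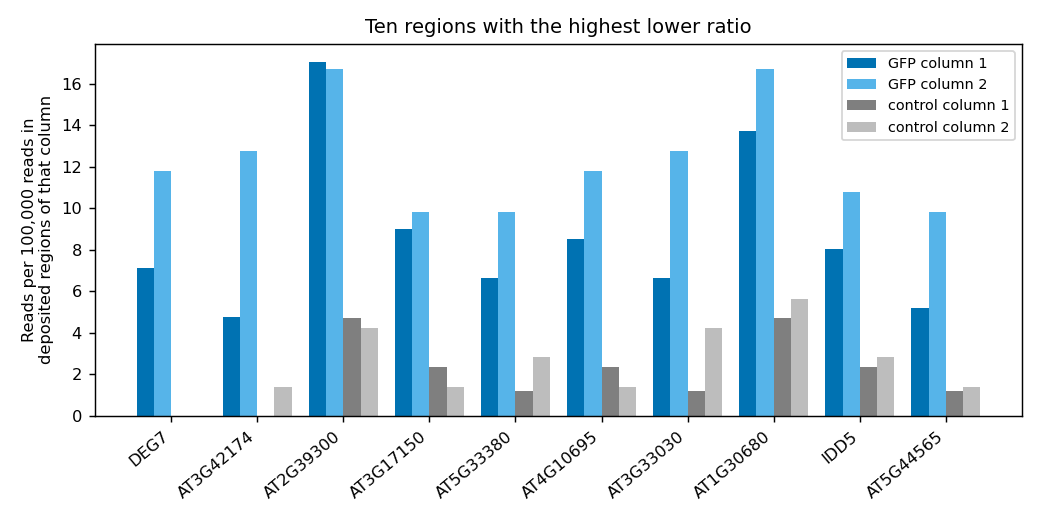
Bars give reads per 100000 reads in deposited regions of that column (y axis) for the 10 regions with the highest lower ratio and at least 10 GFP reads in each column. Both GFP bars stand above both control bars at all 10, and DEG7 has no control bar because its controls hold 0 reads.

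Among the other regions high in both columns, 2 were picked out after their values were seen because their genes act in flowering or flower form. A region 270 bp upstream of FTIP1, which encodes a protein needed to move the florigen FT into the phloem (chr5:2130636-2130791), had 21 and 11 GFP reads against 2 and 3 in control. Its ratios were 1.56 and 1.06, or 0.89 and 1.74 with the control columns exchanged, and the authors' q was 0.0230 and 0.0688. A region 1030 bp past the end of MIR164c, a microRNA gene known for limiting petal number (chr5:9853746-9853882), had 19 and 6 GFP reads against 2 and 1 in control. Its ratios were 1.43 and 1.29, or 1.75 and 0.96 with the control columns exchanged, and q was 0.0293 and 0.108. The filter on low counts kept both out of the edgeR test.

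By kind of gene, the regions high in both columns lay mostly around the centromeres. Of the 86, 57 (66.3%, 95% Wilson interval 55.8 to 75.4) were within 2 Mb of a centromere's approximate position, against 23.0% of all regions. Shares and intervals here describe sets of regions, which are not replicates, and no enrichment was tested. A pseudogene, the class in which RefSeq also holds transposable element genes of this plant, was at or nearest the centre of 51 (59.3%, 48.7 to 69.1), against 21.2% of all regions. Protein-coding genes made up 34 (39.5%, against 76.6%). At the lower bar of a ratio above 0 in both columns, which 1792 regions met, 35.6% were pericentromeric and 34% lay at pseudogenes. Among the 86, centres in coding exons were found in 10 (11.6%, against 32.0%), and centres within 1 kb upstream of a gene in 14 (16.3%, against 12.8%). None of the 86 centres lay in a 5' UTR or a 3' UTR, with an upper 95% Wilson bound of 4.28% for each, against 2.5% and 2.09% of all regions.

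Regions with few control reads that were not high in both columns were pericentromeric to a like or larger extent. Of the 446 other regions with 3 or fewer reads in both control columns, 75.8% (71.6 to 79.5) were pericentromeric, 77.1% (73.0 to 80.8) lay at pseudogenes and 4.93% (3.28 to 7.36) were centred in coding exons. Among these 446 were 48 regions high in column 1 only (10.8%, against 5.65% of all regions). High in column 2 only were 16 (3.59%, against 5.48%). Pericentromeric regions had lower reads in every column, with medians of 14 and 7 in GFP and 4 and 5 in control, against 22 and 10 and 8 and 7 on the arms. Whether low coverage of repeats accounts for the makeup of the 86 was not tested, and the sources used here do not say how reads that match several places were treated. The 41 regions that passed the authors' q in both columns, whose median reads were 26 and 17 in GFP and 4 and 5 in control, had a different makeup: 26.8% pericentromeric (15.7 to 41.9), 22.0% at pseudogenes (12.0 to 36.7) and 51.2% in coding exons (36.5 to 65.7).

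**Figure D4:**
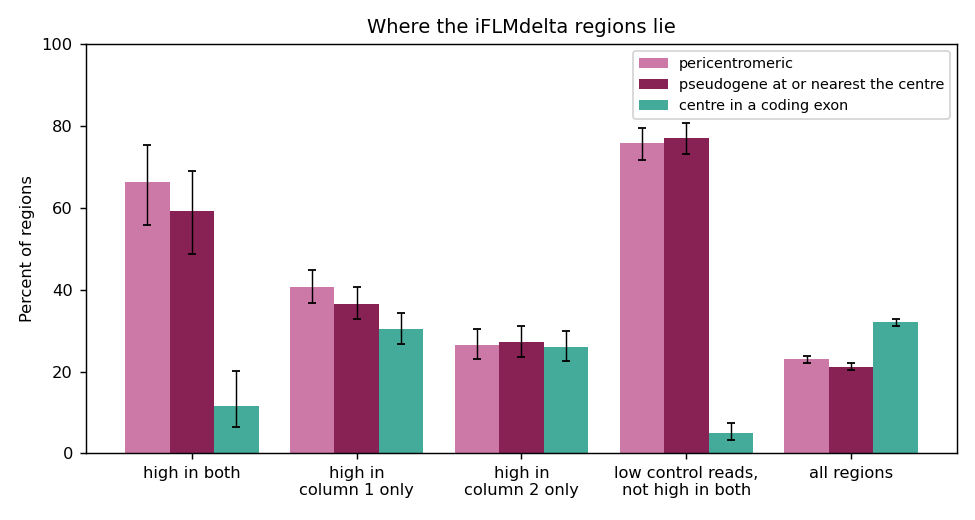
Bars give the percent of regions (y axis) that are pericentromeric, that lie at a pseudogene, or whose centre is in a coding exon, for 5 sets, with 95% Wilson intervals over regions. The share of pericentromeric regions is 66.3% in the set high in both columns, 75.8% in regions with 3 or fewer control reads that are not high in both, and 23.0% over all regions.

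Which regions were high in 1 column only depended on the pairing of the columns. With the control columns exchanged, 11 of the 565 stayed high in column 1 only and 18 of the 548 in column 2 only, so the members named here hold for the pairing by number. Control column 1 was the lower of both scaled controls in 561 of the 565 regions high in column 1 only (99.3%), and in 6 of the 548 high in column 2 only (1.09%). GFP column 1 was the higher of both scaled GFP columns in 463 (81.9%) and 103 (18.8%) of them. The same reads define the sets, so these shares are a description. The median reads of the first set were 20 and 6 in GFP against 2 and 7 in control, and those of the second 16 and 11 against 10 and 2. Pericentromeric regions made up 40.7% (36.7 to 44.8) of the first and 26.6% (23.1 to 30.5) of the second.

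All 10 regions that led column 1, among those with 10 or more reads in GFP column 1, had 0 reads in control column 1. The leading region, in an intron of AT2G07240 (chr2:3010472-3010730), had 24 and 10 GFP reads against 0 and 8 in control. A coding exon of WRKY9, a WRKY transcription factor gene, had 17 and 5 against 0 and 6, and one of TRM10 had 16 and 16 against 0 and 13. At TRM10 the GFP columns were equal in raw reads, so its ratios of 2.78 and -0.24 differed through the control reads and the scaling to column sums. Of these 10, 8 were pericentromeric and 6 lay at pseudogenes. In column 2, among regions with 10 or more reads in GFP column 2, 5 of the leading 10 had 0 reads in control column 2. Among these 5 was an intergenic region 2050 bp past the end of EMS1, a receptor kinase gene of anther development (8 and 14 against 8 and 0). Another lay 13 bp upstream of TUB8, a beta tubulin gene (15 and 12 against 13 and 0). An intron of SKP2A, an F-box gene of the cell cycle, had 23 and 10 against 16 and 0.

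The most GFP reads among the regions high in column 2 only lay in a stretch of 5768 bp that reaches from a coding exon of AT4G14390 into ACD6 (AT4G14400), which encodes an ankyrin-repeat membrane protein of salicylic acid defence and cell death. Its 5 regions (within chr4:8291607-8297374) had 69 to 250 reads each in GFP column 2, where the other regions high in column 2 only had at most 32. They summed to 116 and 713 reads in the GFP columns, against 97 and 79 in the control columns. Of all reads in deposited regions, that was 0.0549% (exact 95% interval 0.0454 to 0.0659) and 0.699% (0.649 to 0.753) in GFP, against 0.114% (0.0925 to 0.139) and 0.111% (0.0880 to 0.138) in control. GFP column 2 was thus far above the other 3 libraries, and GFP column 1 was below both controls. The strongest region by ratio, in a coding exon of ACD6 (chr4:8297236-8297374), had 15 and 69 GFP reads against 7 and 2. That with the most reads, intergenic between both genes (chr4:8292867-8293347), had 39 and 250 against 42 and 28. The ratios of the 5 ran from 1.96 to 4.02 in column 2 and from -1.42 to -0.25 in column 1.

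No other run of neighbouring high regions, joined where gaps were 5 kb or less, had more than 3 members in either column. The 14 deposited regions beyond AT4G14390 and ACD6 within 100 kb had ratios of -0.98 to 0.41 in column 2, so the excess was local. A sixth region of the locus, in an intron of AT4G14390, had 31 and 12 GFP reads against 8 and 7. By edgeR the region 674 bp upstream of ACD6 had a log2 fold change of 1.95 ± 0.67 (SE), with an unadjusted p of 0.00389 and an adjusted p of 0.999905, from 10 and 76 GFP reads against 7 and 8. Its GFP columns lie on both sides of the controls once scaled. For the intergenic region the edgeR value was 1.56, and -1.29 without GFP column 2. The ACD6 region in the gFLM table, from seedlings grown for 15 days at 16 °C, had 6, 3 and 6 GFP reads against 5, 0 and 4. Whether AT4G14390 and ACD6 share reads through similar sequence was not tested.

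**Figure D5:**
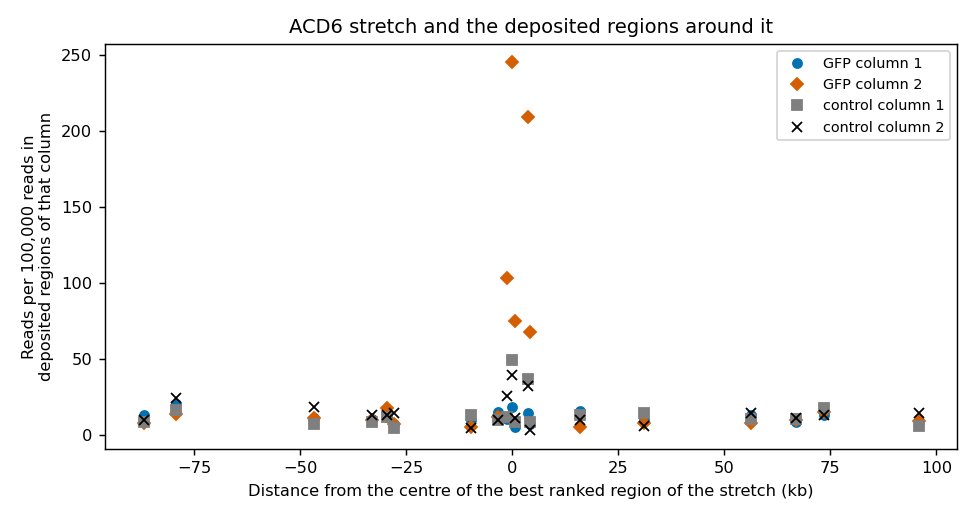
Reads per 100000 reads in deposited regions of each column (y axis) at the ACD6 stretch and at other deposited regions within 100 kb, by distance in kb from the centre of its best ranked region (x axis). GFP column 2 stands far above the other columns over the stretch. The control columns also hold more reads at 2 of its regions (42 and 28, and 31 and 23 reads) than at any of the 14 other regions around the locus (at most 15 and 17). These 2 regions are 481 and 479 bp long, against a median of 154 bp over all regions. Reads are not given per bp, so these control reads do not show an excess at the locus.

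PIF4, a bHLH factor that promotes growth and flowering in warmth, gave the highest read count of GFP column 1. Its coding exon (chr2:17887318-17887793) had 146 and 57 GFP reads against 26 and 55 in control. The ratio was 1.13 in column 1 and -0.47 in column 2, so GFP and control overlapped once scaled. It was the single region with an authors' q of 0.001 or less in column 1, at 2.53e-09, and q was 0.143 in column 2. By edgeR the log2 fold change was 0.22 with an unadjusted p of 0.803, and it ran from -0.30 to 1.12 when each library in turn was left out. A second coding-exon region of PIF4 (chr2:17888434-17888604) had 54 and 16 against 17 and 17.

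Of 35 listed flowering regulators, 8 had regions within 3 kb upstream of their start to 1 kb past their end, 11 regions in all. Of these 11, 0 were high in either column, where 16.5% of all regions were, a background at which 11 regions say little. edgeR called 0 of the 6 it tested. Over all 11 the median of the mean ratio was -0.21, against -0.03 over all regions. SOC1, an activator of flowering, had a region 1164 bp upstream (chr2:18812140-18812283) with 15 and 7 GFP reads against 11 and 3. FT, the florigen gene, had a region 139 bp upstream (chr1:24331207-24331371) with 25 and 9 against 8 and 6. ATC, a relative of the floral repressor TFL1, had a region 2265 bp upstream with 16 and 11 against 15 and 8, and ratios of -1.22 and -0.11. Only SNZ, an AP2-type repressor, was above 0 in both columns, with 26 and 15 against 6 and 7 in a coding exon and ratios of 0.64 and 0.48. No region was assigned to FLM or SVP.

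Of 10 floral organ identity genes, PI, AG and SHP2 had 4 regions, with 0 high and 1 tested by edgeR, and a median mean ratio of 0.02. An intron of AG, the gene of stamen and carpel identity, had 25 and 9 GFP reads against 11 and 5. Of 19 light, temperature and clock genes, 7 had 8 regions, all tested and 0 called, with a median mean ratio of -0.13 and PIF4 the single one with a high column. CBF2, an activator of the cold response, had a region 948 bp upstream (chr4:13017083-13017255) with 20 and 16 against 7 and 8, and ratios of 0.08 and 0.40. ELF3, a clock gene of the evening complex, had 14 and 13 against 14 and 4 at 1249 bp upstream, and ratios of -1.31 and 0.97.

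Regions lower in GFP were weak. No region had a ratio of -1 or less in both columns, and 420 were below 0 in both. The authors called the regions on these same libraries, so these counts do not show how common lower regions are in the genome. With at least 10 reads in each control column, the lowest by its higher ratio was a coding exon of SIRB, an enzyme gene of siroheme synthesis, with 20 and 12 GFP reads against 12 and 10 and ratios of -0.62 and -0.28.

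iFLMbeta, grown in the same conditions with 2 GFP and 2 control libraries of its own, gives the nearest comparison. There 92 of 13791 regions (0.667%) were high in both columns, a share near that of iFLMdelta, but 10.9% of these were pericentromeric against 66.3% in iFLMdelta, and 13.3% against 23.0% of all regions. The lower ratio was 2 or more in 6 iFLMdelta and 14 iFLMbeta regions. The tables hold different regions, so these differences were not tested. None of the 86 regions overlapped a region with q of 0.05 or less in every replicate of iFLMbeta (0 of 202) or gFLM (0 of 159), where 0.11% and 0.08% of all iFLMdelta regions did, so 0 of 86 says nothing particular about them. A deposited region of iFLMbeta was overlapped by 2 of the 86 (2.33%, against 7.37% of all iFLMdelta regions) and one of gFLM by 1 (1.16%, against 7.32%).

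At the 11 iFLMdelta regions that overlap a passing iFLMbeta region, 0 were above 0 in both iFLMdelta columns (17.9% of all regions were) and 0 were high in either (16.5% of all regions), counts too small to set these 11 apart. Their iFLMdelta ratios ran from -1.20 to 0.79 and their iFLMbeta ratios from -0.03 to 3.54, the second partly by selection. At AT1G17940 iFLMdelta had 31 and 21 GFP reads against 23 and 12 in control, and iFLMbeta had 108 and 116 against 22 and 13. At PIL2, a bHLH gene of the PIF family, iFLMdelta had 41 and 46 against 35 and 18, and iFLMbeta had 185 and 128 against 84 and 14. The edgeR test of the difference between constructs called 0 of 556 region pairs, with 2 at an unadjusted p under 0.05. One of them was AT1G17940, with iFLMbeta over iFLMdelta at a log2 difference of 1.83 ± 0.81 (SE), an unadjusted p of 0.0245 and an adjusted p of 0.999. In simulated counts this test recovered 66.1% of pairs that differed 8-fold, counted among pairs that passed the filter. The spread was again fixed and not estimated from these libraries, so this share does not give the power of the real test.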

How the data were processed

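Chromatin from GFP and control seedlings was precipitated, and PCR-amplified DNA was sequenced on an Illumina Genome Analyzer II (labels' protocols). Reads were placed on TAIR10, going by the submitters' processing notes. Aligner, peak caller and treatment of duplicates: not given in the sources used here. For each construct a table of regions was deposited with raw read counts per column and no normalization, per the file headers. It also holds a Benjamini-Hochberg q-value per column, the log2 of the rank product of the q-values, and a score that ranks it, all made by the authors, per the file headers. The test behind the q-values is not stated.

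GFP and control counts were compared with edgeR 4.0.16 in R 4.3.3 (quasi-likelihood, TMM, filterByExpr) and, as an alternative, DESeq2 1.42.0, with adjustment over all regions tested. Since the authors called regions on the same libraries, the test describes how firmly counts separate the groups. Tests were also run on simulated data. Python 3.11.15 computed ratios and intervals. The smallest two-sided p of an exact permutation test of 2 libraries against 2 is 0.33. iFLMbeta and iFLMdelta were compared by an edgeR interaction at regions overlapping by 1 bp or more. Columns with the same number did not deviate together (correlation of deviations -0.116), so the main edgeR fit does not take the numbers as pairs. The ratios still pair columns by number.

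Gene names and biotypes come from RefSeq (TAIR10.1), which matched 8152 of 8231 genes, and locations from the authors' table, in which 709 rows are cut short. Words in gene descriptions could not be used, since only 3608 of 10006 regions have any. Centromere positions are rounded textbook values. Regions named were drawn from the 10 leading each set, those with the most GFP reads, the 10 best by the authors' rank, the 5 lowest in GFP and those of the gene lists. Only the 10 leading the set high in both columns are all named. Of the other groups only some members are given, and a few regions outside them were added. Members and lists were chosen with earlier results of these data known. No genome sequence was used here, so CArG boxes were not searched.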

Additional observations from a re-analysis of the deposited data

How the results depend on the processing

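edgeR called 0 regions under every alternative run: library size scaling, DESeq2, no filter, each library left out, and the column number as a replicate block (0 called, 1 higher and 0 lower at an unadjusted p under 0.05). The crossed numbers as a block, added after seeing the data because same-numbered columns deviated oppositely, called 0 with 11 higher and 8 lower. The interaction also called 0 under its alternatives, block included. The sets defined by ratio moved more. High in both columns, 86 as reported, were 57 with control columns exchanged, 0 with a pseudocount of 5, 137 with 0.5, 43 with scaling by the median ratio, and 24 with at least 10 GFP reads. Without a control library both ratios share the other, and the counts were 388 to 474 for both columns, 56 to 68 for column 1 only and 63 to 79 for column 2 only. With a pseudocount of 5, column 1 only fell to 7 and column 2 only to 32 regions, and against the mean of both controls to 40 and 76. Column 2 only held 347 with at least 10 GFP reads. At q of 0.01 or less in both columns 0 regions were left, and at 0.1 there were 309, against 41. The edgeR log2 fold change ran from -1.29 to 2.32 at AT4G14390 and from -0.30 to 1.12 at PIF4 when each library was left out. The cause of these shifts was not tested. Control reads were low, with medians of 7 and 6 over all regions and of 1 and 1 in the 86 regions high in both columns. Leaving out a GFP library gives no value for both columns, and the CArG box alternatives were not run.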

Other observations

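Several of the regions with the most GFP reads were also rich in control reads. AT4G38310 had 82 and 33 GFP reads in a coding exon against 59 and 20 in control, with ratios of -0.84 and 0.18. MLO2, a gene of powdery mildew susceptibility, had 78 and 36 in an intron against 21 and 27, with ratios of 0.53 and -0.12. ROPGEF2 had 81 and 24 at 2244 bp past its end against 27 and 36. At the last of these the ratios were 0.24 and -1.09. The 2 regions lower in GFP at an unadjusted p under 0.05 by edgeR each rest on 1 control column: AT1G67920 had 24 and 7 GFP reads against 5 and 28 in control, and AT3G30380 had 9 and 12 against 22 and 6.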
